A study of Mus musculus with 42 samples.

Results

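Gsc-positive cells sorted on day 3 (d3G+) were compared with the whole culture of day 2 (d2), 24 h earlier, in mouse embryonic stem cells (ESCs) on their way to anterior definitive endoderm (ADE). The members are the 3 d3G+ arrays and the 3 d2 arrays, 6 of the 42 arrays of the series, taken by their labelled day and population. All cells descend from 1 dual reporter ESC line, in which GFP was knocked into the Gsc locus and RedStar into the Hhex locus, so every group carries both reporter alleles. The d2 cells were not sorted, the d3G+ cells were gated by fluorescence-activated cell sorting (FACS) for GFP, and neither group was treated with a drug. In the study's scheme Activin A was present throughout, BMP4 was given up to d2, and FGF4, EGF and insulin came with a change of base medium at d2. Day, medium and sorting therefore differ together between d2 and d3G+ and cannot be told apart in this comparison. The d3 cells without GFP (d3G-, 3 arrays), which had the same day, medium and passage through the sorter, serve as the second reference. The study describes 3 independent experiments for each population.

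During gastrulation, epiblast cells at the posterior of the embryo enter the primitive streak, lose their epithelial organisation and leave it as mesoderm or endoderm. Nodal, for which Activin A stands in here, works with Wnt and BMP ligands to start the streak, and the T-box factors T and Eomes act early in this step. FGF signalling drives the movement of cells out of the streak. Gsc is a homeobox gene of the anterior streak and of mesendoderm, a population that carries both mesodermal and endodermal transcripts.

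RNA was measured as log2 fluorescence intensity on Agilent 1-colour arrays after the quantile normalisation of the depositors, a scale on which a difference of 1 is a 2-fold change. Between 26532 and 37905 of the 55681 probes were well above background on the 6 arrays by the mark of the scanner software. Replicate 3 had the most in both groups, 37549 on d2 and 37905 in d3G+, while the other arrays had 26532 to 29884. Counts of arrays above background below carry this difference between replicates. Changes of dim probes are understated on this scale. Where every array of d2 or of d3G+ was below that mark, a called change of a gene described singly is given as a lower bound. Distances between d3G+ and d2 arrays over all probes (141.6 to 174.1) were larger than those between arrays of the same group (84.9 to 111). Those between d3G+ and d3G- arrays (98.2 to 143.5) overlapped both ranges.

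Gsc, the gene of the sorted reporter, served as a check of the labels. Its log2 intensity was 5.14, 4.69 and 5.52 on the d2 arrays, 7.85, 8.10 and 8.74 on the d3G- arrays and 11.28, 12.08 and 11.97 on the d3G+ arrays. The 3 populations did not overlap, 1 of the 3 d2 arrays was above background, and the d3G- cells lay between the others. Because the sort selected on this locus, no test of Gsc is given.

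A gene, meaning a RefSeq accession on the array, was called where at least 1 of its probes had a limma adjusted p of at most 0.01 and a log2 fold change (FC) of at least 1.5 in size. Of 22201 genes, 671 were higher in d3G+ than in d2 (3.02%) and 623 were lower (2.81%). The median log2 FC was 2.14 for the first group and -2.02 for the second, against 0.011 over all genes. The log2 FC was at least 3 for 153 genes and at most -3 for 81. Of the 671 higher genes, 503 were already above background on all d2 arrays, whereas 35 were below it on every d2 array. Over all 22201 genes these counts were 14314 and 4791. Conversely, 448 of the 623 lower genes were still above background on all d3G+ arrays and 43 were below it on each of them. Over all genes 4776 were below it on each d3G+ array. Since these are bulk RNA samples, a change in the share of cells that express a gene cannot be told apart from a change of RNA per cell.

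Against d3G-, 162 genes were higher in d3G+ (0.73%) and 248 were lower (1.12%). That contrast is also the test of the difference between the changes of the d3G+ and d3G- populations from d2. The d3G- cells had 228 genes higher (1.03%) and 65 lower (0.293%) than d2. Both d3 populations share the d2 arrays as reference, so their changes from d2 are set side by side below and not correlated.

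Transcription factors of the primitive streak and mesendoderm rose broadly. The list has 24 members on the array, of which Gsc is left out of the counts as the gene of the sort. Of the other 23, 16 were higher in d3G+ than in d2, 0 were lower and 7 were not called, with a median log2 FC of 3.59. Over all genes 3.02% were higher and 2.81% lower, shares that belong beside every list count against d2 below. In the comparison with d3G-, 9 of the 23 were higher, where the shares over all genes were 0.73% higher and 1.12% lower. The d3G- cells themselves had 9 of the 23 above d2, against 1.03% of all genes.

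**Figure D1:**
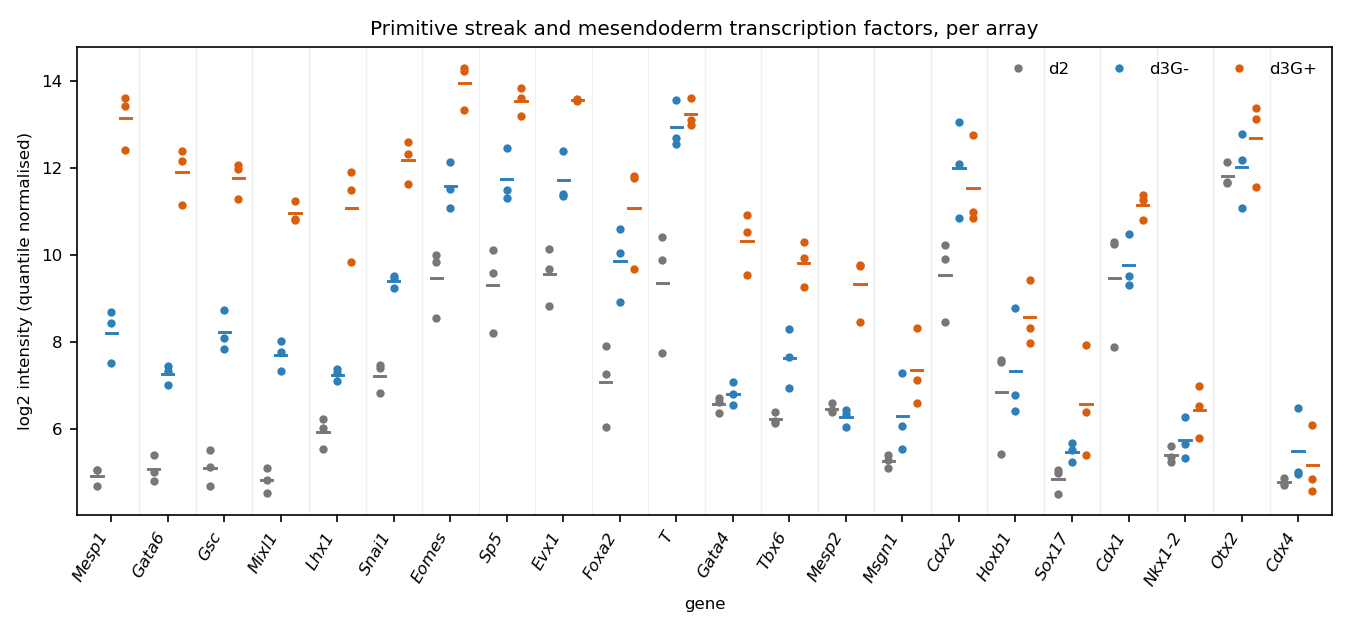
Log2 intensity (vertical axis, quantile normalised) of 22 of the 24 primitive streak and mesendoderm transcription factors on each d2 (grey), d3G- (blue) and d3G+ (orange) array, with a bar at the mean of each group. Genes run from the largest increase on the left to the smallest on the right, and for Mesp1, Gata6, Mixl1 and Lhx1 every d3G+ array lies above every d3G- and d2 array.

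Mesp1, a bHLH factor of nascent and cardiac mesoderm, rose more than any other gene. It measured 5.05, 4.69 and 5.05 on the d2 arrays and 12.42, 13.43 and 13.61 on the d3G+ arrays. The groups were separated by more than 7 log2 units, and 1 d2 array was above background. The log2 FC was 8.22 ± 0.72 (SE, limma adjusted p = 1.7e-10). In d3G- cells the level was 7.51, 8.43 and 8.70, above all d2 arrays and below all d3G+ arrays, and the difference of d3G+ from d3G- was 4.94 ± 0.72 (adjusted p = 1.7e-05). Mesp2, its neighbour on chromosome 7 and a bHLH factor of presomitic mesoderm, behaved differently in d3G- cells. Its d2 values were 6.60, 6.43 and 6.39, its d3G- values 6.04, 6.44 and 6.35, and its d3G+ values 8.46, 9.75 and 9.77. Here the d3G- and d2 arrays overlapped while all d3G+ arrays lay higher, with a log2 FC of 2.85 ± 0.34 over d2 and 3.05 ± 0.34 over d3G- (adjusted p = 1.0e-07 and 2.1e-07).

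The promoters of Gsc, of the Mesp1 and Mesp2 pair and of Sp5, a zinc finger target of Wnt signalling, are printed. All 4 genes read higher on every d3G+ array than on every d2 array. They did not move alike in d3G- cells, where only Mesp2 overlapped d2. Each window covers 250 bases before and 50 bases after the annotated start (RefSeq, GRCm38.p6, written in the direction of transcription). Capitals mark matches on either strand to a T-box motif (TCACACCT), a GATA motif (AGATAA), a Foxh1 motif (AATNCACA), a TCF/LEF motif (ATCAAAG), a Smad palindrome (GTCTAGAC) or a Gsc-type homeodomain motif (TAATCC). The Gsc window lies at chr12:104473187-104473486 on the minus strand, Mesp1 at chr7:79793541-79793840 on the minus strand, Mesp2 at chr7:79810477-79810776 on the plus strand and Sp5 at chr2:70474673-70474972 on the plus strand. These 4 were picked after the matches were seen.
Gsc: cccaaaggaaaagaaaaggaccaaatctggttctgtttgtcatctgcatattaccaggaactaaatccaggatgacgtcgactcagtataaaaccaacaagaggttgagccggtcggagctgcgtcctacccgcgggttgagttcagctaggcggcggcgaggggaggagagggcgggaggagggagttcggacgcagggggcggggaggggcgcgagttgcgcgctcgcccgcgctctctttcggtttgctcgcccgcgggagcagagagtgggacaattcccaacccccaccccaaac
Mesp1: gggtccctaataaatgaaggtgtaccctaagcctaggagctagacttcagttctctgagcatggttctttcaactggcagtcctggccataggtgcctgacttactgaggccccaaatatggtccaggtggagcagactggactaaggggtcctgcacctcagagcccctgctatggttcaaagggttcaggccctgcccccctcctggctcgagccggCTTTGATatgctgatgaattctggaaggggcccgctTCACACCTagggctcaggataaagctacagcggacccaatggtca
Mesp2: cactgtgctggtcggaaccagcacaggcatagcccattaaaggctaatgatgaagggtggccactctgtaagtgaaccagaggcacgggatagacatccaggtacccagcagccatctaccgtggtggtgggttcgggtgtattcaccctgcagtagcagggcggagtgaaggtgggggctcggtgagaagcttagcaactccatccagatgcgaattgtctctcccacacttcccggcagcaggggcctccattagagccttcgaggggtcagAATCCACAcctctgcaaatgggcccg
Sp5: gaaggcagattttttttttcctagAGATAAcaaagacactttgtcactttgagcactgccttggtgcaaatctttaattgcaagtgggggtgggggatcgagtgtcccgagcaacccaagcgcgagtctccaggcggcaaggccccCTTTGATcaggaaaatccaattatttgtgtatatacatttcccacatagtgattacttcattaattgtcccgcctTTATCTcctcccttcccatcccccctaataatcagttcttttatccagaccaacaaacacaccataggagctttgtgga

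In the Mesp1 window the TCF/LEF letters stand on the opposite strand at positions -31 to -25 from the start and the T-box letters at 6 to 13. The Mesp2 window holds a Foxh1 match at 25 to 32, the Sp5 window holds GATA matches at -226 to -221 and -29 to -24 around a TCF/LEF match at -104 to -98, and the Gsc window holds none of the 6. Across the genes with a promoter entry, the TCF/LEF letters occurred in 4.32% of 486 higher genes, 2.88% of 451 lower genes and 3.79% of all 16601 genes. The corresponding shares for the T-box letters were 1.85%, 1.77% and 1.37%. For GATA they were 9.47%, 9.31% and 11%, and for Foxh1 3.09%, 3.33% and 3.54%. The Smad palindrome occurred in 0.412%, 0.665% and 0.271%, and the Gsc-type letters in 5.56%, 8.87% and 7.57%. A match is a stretch of letters and not a measured binding site.

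Eomes, required for endoderm and for mesoderm exit from the streak, was already well expressed on d2 at 10.02, 8.55 and 9.85 and reached 13.34, 14.23 and 14.30 in d3G+. All d3G+ arrays were above the d3G- values of 11.08, 11.53 and 12.14. The increases were 4.49 ± 0.33 over d2 and 2.37 ± 0.33 over d3G- (adjusted p = 3.2e-12 and 7.5e-06). T, the Brachyury gene, rose in both d3 populations. It read 10.42, 7.74 and 9.90 on d2, 13.57, 12.55 and 12.69 in d3G- and 13.62, 13.10 and 12.98 in d3G+. Both sets of d3 arrays lay above d2 and overlapped each other, with a log2 FC of 3.88 ± 0.50 for d3G+ over d2 and a difference of 0.30 ± 0.50 from d3G- (adjusted p = 3.6e-07 and 0.99). For T, Sp5 and the homeobox gene Evx1, d2 replicate 2 was the lowest d2 array.

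Mixl1, a homeobox gene of streak and endoderm, was below background on all d2 arrays at 5.11, 4.53 and 4.83. In d3G+ it measured 10.83, 11.25 and 10.81, at least 67.4-fold higher (adjusted p = 9.5e-15). Its d3G- arrays, at 8.03, 7.76 and 7.35, lay between the groups. Gata6 and Gata4, zinc finger factors of endoderm and cardiac mesoderm, differed in the same way between the sorted populations. Gata6 rose from 5.01, 4.82 and 5.40 to 11.15, 12.39 and 12.17, a log2 FC of 6.82 ± 0.33 (adjusted p = 5.5e-16). Gata4 rose from 6.62, 6.72 and 6.38 to 9.54, 10.93 and 10.54, a log2 FC of 3.76 ± 0.47 (adjusted p = 2.8e-07). Their differences from d3G- were 4.63 ± 0.33 and 3.52 ± 0.47 (adjusted p = 1.0e-10 and 4.8e-06). Both factors were lowest on d3G+ replicate 1 among the d3G+ arrays.

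Lhx1, a LIM homeobox gene of the anterior streak, and Foxa2, a forkhead factor of anterior streak and endoderm, rose by 5.15 ± 0.47 and 4.01 ± 0.63 (adjusted p = 4.8e-10 and 1.3e-05). Lhx1 stood at 9.85, 11.91 and 11.50 on the d3G+ arrays and at 7.11, 7.38 and 7.28 on the d3G- arrays. Foxa2 stood at 9.69, 11.81 and 11.77 in d3G+ and at 8.92, 10.04 and 10.61 in d3G-. The Lhx1 groups were separate and differed by 3.83 ± 0.47 (adjusted p = 1.0e-06), whereas the Foxa2 groups overlapped because d3G+ replicate 1 lay below 2 d3G- arrays (1.23 ± 0.63, adjusted p = 0.45). Sp5 rose by 4.24 ± 0.59, Evx1 by 4.01 ± 0.50 and Tbx6, a T-box factor of paraxial mesoderm, by 3.59 ± 0.38 (adjusted p at most 1.6e-06). Only Tbx6 of these 3 was also called against d3G- (2.19 ± 0.38, adjusted p = 1.9e-04).

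Other members moved less or were not called. Msgn1, a bHLH factor of presomitic mesoderm, rose by 2.08 ± 0.41 (adjusted p = 2.8e-04) and the caudal gene Cdx1 by 1.67 ± 0.44 (adjusted p = 0.007). The call of Cdx1 was lost without d2 replicate 2 (0.87, adjusted p = 0.195) and without any 1 of the d3G+ arrays (1.62, 1.84 and 1.55 without replicates 1, 2 and 3, adjusted p = 0.0288, 0.0106 and 0.0354). Cdx2, Hoxb1 and Nkx1-2 were not called, with log2 FCs of 2.00, 1.73 and 1.03, nor was Cdx4, which was below background on all d2 arrays. Cdx2 read 12.76 on d3G+ replicate 1 and 10.86 and 11.001 on the other d3G+ arrays, against 9.92, 8.46 and 10.23 on d2. Replicate 1 was also the highest d3G+ array for Hoxb1 and Msgn1 and the lowest for Lhx1, Foxa2, Sox17 and Cer1. Otx2, expressed on all 6 arrays, had a log2 FC of 0.87 and was not called.

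In d3G+ 6 of 9 Wnt, 4 of 8 FGF and 3 of 4 BMP ligands were higher than in d2, and 1 FGF ligand was lower. The shares over all genes were 3.02% higher and 2.81% lower. Of the 3 Nodal pathway ligands 0 were higher and 2 were lower, and the difference between the pathways was not tested. Nodal itself measured 12.52, 12.46 and 12.59 on d2 and 12.54, 12.36 and 12.30 in d3G+, with a log2 FC of -0.12 ± 0.21 (adjusted p = 0.93). Of the 21 members of the Nodal pathway 2 were higher and 3 were lower, and against d3G- 1 was higher and 1 lower. The 2 higher members were Cfc1, an EGF-CFC co-receptor of Nodal, and Cer1, a secreted antagonist. The 3 lower members were the ligands Gdf3 and Gdf1 and the proprotein convertase Pcsk6. Cer1 lost its call without d2 replicate 2 or 3 or d3G+ replicate 2 or 3, with adjusted p of 0.0116, 0.0112, 0.0293 and 0.0157. Pcsk6 lost its call without d2 replicate 2 or d3G+ replicate 2 or 3 (-1.60, -1.71 and -1.56, adjusted p = 0.0209, 0.0124 and 0.0211).

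Gdf3 fell from 13.58, 13.63 and 13.69 to 9.39, 8.11 and 8.35 and read 11.81, 12.49 and 12.51 in d3G-. No array of any of these groups overlapped another group, and the log2 FC was -5.02 ± 0.52 from d2 and -3.66 ± 0.52 from d3G- (adjusted p = 6.8e-09 and 1.3e-05). Gdf1 fell by 2.31 ± 0.25 (adjusted p = 1.8e-08) on its brighter probe, while its other probe gave -0.05. Cfc1 rose from 6.76, 6.58 and 6.70 to 9.60, 10.38 and 9.93, by 3.29 ± 0.38 (adjusted p = 4.5e-08). Cer1 was below background on every d2 array and read 6.88, 9.78 and 9.15 in d3G+, at least 12.6-fold higher (adjusted p = 0.0023). Replicate 1 was the lowest of the 3 by more than 2 log2 units. Tdgf1, the co-receptor Cripto, had a log2 FC of 1.19, the Activin receptors Acvr1b, Acvr2a and Acvr2b stood at 0.27, 0.87 and 0.84 and Acvr1c was below background on all 6 arrays, and the feedback antagonists Lefty1 and Lefty2 stood at -0.40 and 1.07. None of these 7 was called.

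**Figure D2:**
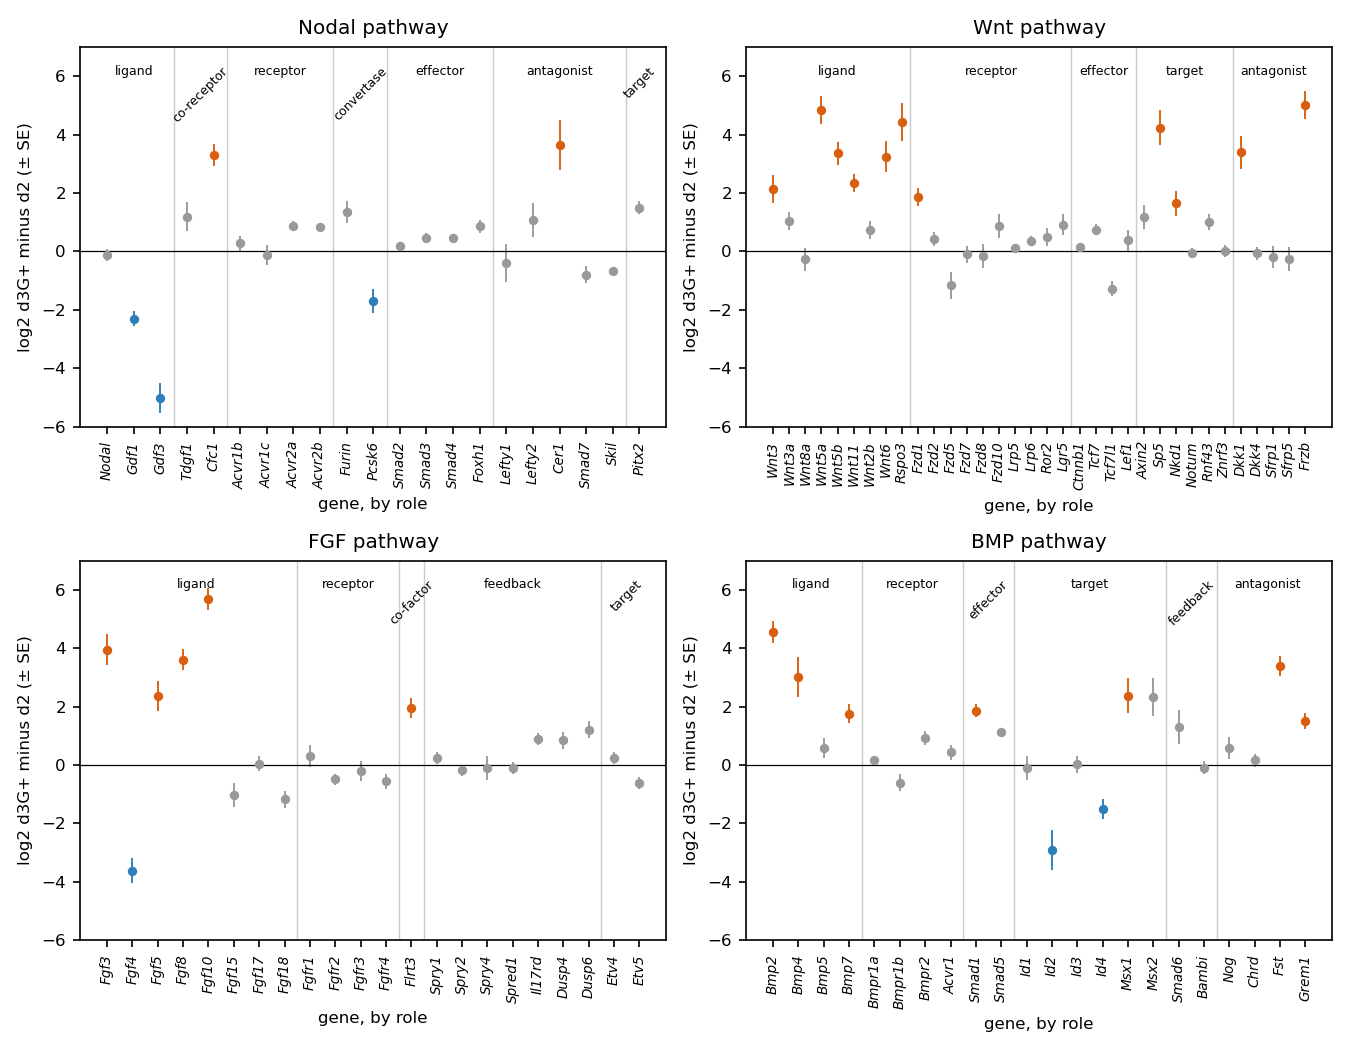
Log2 fold change of d3G+ over d2 (vertical axis, ± SE) for each member of the Nodal, Wnt, FGF and BMP lists, grouped by role along the horizontal axis, with called genes in orange (higher) or blue (lower) and others in grey. Most called genes of the Wnt, FGF and BMP panels are ligands or antagonists, and Fzd1 is the receptor called, besides the co-receptor Cfc1.

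Wnt members on the array numbered 34, of which 11 were higher and 0 lower in d3G+ than in d2. The Wnt antagonist gene Sfrp2, which fell, is not among these 34 and is counted with the epiblast genes below. Ligands contributed 6 of 9, namely Wnt3, Wnt5a, Wnt5b, Wnt6, Wnt11 and the R-spondin Rspo3. Wnt5a rose from 7.38, 6.00 and 7.12 to 12.13, 11.13 and 11.79, with d3G- arrays at 9.14, 9.34 and 9.61. The 3 populations were separate, and the changes were 4.85 ± 0.47 from d2 and 2.32 ± 0.47 from d3G- (adjusted p = 1.9e-09 and 0.0018). Rspo3 rose by 4.42 ± 0.65, Wnt5b by 3.36 ± 0.40 and Wnt6 by 3.25 ± 0.54 (adjusted p at most 2.9e-05), and their differences from d3G- (1.00, 1.09 and 1.45) were not called. Wnt3, the ligand needed for streak formation, rose by 2.13 ± 0.47 (adjusted p = 0.0012). Without d2 replicate 2 the value for Wnt3 was 2.00 and just missed the threshold (adjusted p = 0.0101). Wnt3a was below background on all d2 arrays and above it on 2 d3G+ arrays, and was not called.

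Of 10 Wnt receptors only Fzd1 was called, at 1.86 ± 0.31 (adjusted p = 3.2e-05), and of the 4 nuclear effectors none. Tcf7l1, a repressor that restrains Wnt targets in pluripotent cells, had a log2 FC of -1.28 and did not reach the fold threshold. Among 6 targets, Sp5 and Nkd1 were higher and Axin2 (1.18) was not called. Nkd1 was not called when any 1 of the d3G+ arrays or d2 replicate 1 or 2 was left out (log2 FCs of 1.49 to 1.70, adjusted p from 0.016 to 0.0396). The secreted antagonists Frzb and Dkk1 were called against both references. Frzb rose from 4.88, 4.53 and 5.21 to 8.87, 10.49 and 10.27, by 5.00 ± 0.48 from d2 and 4.07 ± 0.48 from d3G- (adjusted p = 1.2e-09 and 4.4e-07). Dkk1 rose from 6.80, 6.86 and 6.04 to 10.38, 10.14 and 9.35, whereas its d3G- arrays stood at 7.47, 6.46 and 5.96 and overlapped d2. Its changes were 3.39 ± 0.57 and 3.32 ± 0.57 (adjusted p = 3.2e-05 and 1.8e-04).

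The FGF list had 5 of 22 members higher and 1 lower. The ligands Fgf3, Fgf5, Fgf8 and Fgf10 rose and Fgf4, a ligand of pluripotent cells, fell. Without d3G+ replicate 3 the log2 FC of Fgf5 was 2.09 and missed the threshold (adjusted p = 0.0107). Fgf10 climbed from 4.96, 4.54 and 5.00 to 10.15, 10.73 and 10.67, while d3G- arrays stayed at 5.65, 5.70 and 5.75. Every d3G+ array was more than 4 log2 units above every other array of the 3 groups (5.68 ± 0.36 over d2 and 4.82 ± 0.36 over d3G-, adjusted p = 1.7e-13 and 2.8e-10). Fgf3 had changes of 3.94 ± 0.53 and 3.59 ± 0.53 (adjusted p = 9.5e-07 and 2.2e-05). Fgf8, which directs cells away from the streak, rose by 3.60 ± 0.36 from d2 (adjusted p = 3.0e-09) and differed from d3G- by 1.03 ± 0.36 (adjusted p = 0.12). Fgf4 fell by 3.62 ± 0.43 from values of 12.44, 13.20 and 12.53 (adjusted p = 1.0e-07). The 4 FGF receptors and the 7 feedback genes, such as Spry2, Spry4 and Dusp6, were not called, and the receptors lay between -0.57 and 0.31. Flrt3, a membrane partner of FGF receptors, rose by 1.95 ± 0.33 (adjusted p = 3.4e-05).

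Of 22 BMP members 7 were higher and 2 lower. Bmp2, Bmp4 and Bmp7 rose, at log2 FCs of 4.55 ± 0.39, 3.02 ± 0.68 and 1.76 ± 0.32 (adjusted p = 1.1e-10, 0.0015 and 1.0e-04). Bmp2 went from 5.95, 4.90 and 5.43 to 10.25, 10.23 and 9.45 and was called against d3G- as well (2.66 ± 0.39, adjusted p = 1.8e-05). Bmp4 read 13.83 on d3G+ replicate 1 and 12.62 and 12.12 on the others, all above the d2 values of 9.87, 10.01 and 9.61. Without replicate 1 the log2 FC of Bmp4 was 2.54 and its call was lost (adjusted p = 0.0208). The antagonist Fst rose by 3.39 ± 0.35 (adjusted p = 5.7e-09). Grem1, another antagonist, was below background on all d2 arrays and at least 2.6-fold higher (adjusted p = 5.4e-05). This bound is 1.38 on the log2 scale, short of the fold threshold, and the call of Grem1 was lost without d2 replicate 1, d2 replicate 2 or d3G+ replicate 3. Smad1, a transducer of BMP signals, rose by 1.86 ± 0.23 (adjusted p = 1.3e-07).

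The Id genes are direct BMP targets. Id1 and Id3 had log2 FCs of -0.10 and 0.01 in d3G+ from d2 and were not called. In d3G- cells Id1 was called lower than on d2 (-1.97), and Id1 was higher in d3G+ than in d3G- by 1.87 ± 0.41 (adjusted p = 0.0037). Id2 and Id4 fell in d3G+, with log2 FCs of -2.93 ± 0.69 and -1.51 ± 0.36 (adjusted p = 0.0022 and 0.0024), and Id4 lay just past the fold threshold. Without d2 replicate 2, d2 replicate 3 and d3G+ replicate 2 the values for Id2 were -2.92, -2.88 and -2.53 and were not called (adjusted p = 0.0103, 0.0105 and 0.0248). Id4 was not called without d2 replicate 3, d3G+ replicate 1 or d3G+ replicate 3 (-1.35, -1.46 and -1.45). Msx1, a homeobox target, rose by 2.37 ± 0.60 (adjusted p = 0.0051), while Msx2 had a similar log2 FC of 2.33 and missed the threshold (adjusted p = 0.012), which it passed with the replicate block (adjusted p = 0.0037). Msx1 in turn lost its call without d2 replicate 2 or 3 or any 1 of the d3G+ arrays, with log2 FCs of 2.18 to 2.45 and adjusted p from 0.0142 to 0.0332.

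Among genes of the epithelial-mesenchymal transition (EMT), 8 of 26 were higher and 0 lower, beside 3.02% and 2.81% over all genes. Snai1, the repressor that starts this transition in the streak, rose from 7.47, 6.83 and 7.40 to 11.63, 12.33 and 12.59, with d3G- arrays at 9.48, 9.26 and 9.51. The groups did not overlap, and the changes were 4.95 ± 0.34 from d2 and 2.76 ± 0.34 from d3G- (adjusted p = 6.2e-13 and 8.9e-07). Zeb2 and Twist1, other regulators of the transition, rose by 2.14 ± 0.47 and 2.21 ± 0.21 (adjusted p = 0.0011 and 1.5e-09). Without d2 replicate 2 the value for Zeb2 was 1.98 and just missed the threshold (adjusted p = 0.0102). On the mesenchymal side 5 of 10 genes rose, and these were Cdh2, Cdh11, Vim, Fn1 and Itga5. N-cadherin (Cdh2) stood at 10.52, 10.41 and 10.49 on d2 and at 14.13, 13.78 and 13.97 in d3G+ (3.49 ± 0.21, adjusted p = 7.3e-14). Its d3G- arrays were intermediate at 12.69, 11.93 and 11.998.

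None of the 8 epithelial genes was called in the model without a replicate block. E-cadherin (Cdh1) read 12.05, 12.04 and 12.22 on d2 and 11.24, 10.74 and 10.96 in d3G+. All d3G+ arrays were lower, but the log2 FC of -1.12 ± 0.43 did not pass (adjusted p = 0.087). The other epithelial genes ranged from -1.59 (Crb3) to -0.33 (Cldn4), all below 0. Crb3 was called lower with the replicate block (-1.59, adjusted p = 0.0024) and with the 6 arrays alone (adjusted p = 0.006). Cldn3 and Ocln were called lower without d3G+ replicate 1 (-2.18 and -1.55, adjusted p = 0.0085 and 0.0091). Of 17 genes of basement membrane and matrix 4 were higher and 0 lower, namely Col4a1, Col4a2, Col5a1 and Tgfbi, with log2 FCs of 2.06, 2.23, 2.70 and 1.99. Tgfbi was not called without d2 replicate 2 (1.55, adjusted p = 0.0139).

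Of 19 receptors and ligands of cell migration 7 were higher, 2 were lower and 10 were not called. Over all genes the shares were 3.02% higher and 2.81% lower. Cxcr4, the receptor of Cxcl12, rose from 4.81, 4.73 and 4.96 to 7.41, 8.997 and 8.33 (3.42 ± 0.40, adjusted p = 8.5e-08). Cxcl12 fell from 11.05, 11.18 and 11.18 to 9.96, 8.97 and 9.03 (-1.82 ± 0.37, adjusted p = 3.9e-04) and differed from d3G- by -1.77 ± 0.37 (adjusted p = 0.0019). Neither gene overlapped between d2 and d3G+. Pdgfra, a receptor of nascent mesoderm, rose from 4.74, 4.53 and 5.12 to 9.45, 10.84 and 11.06, by 5.66 ± 0.46 from d2 and 4.26 ± 0.46 from d3G- (adjusted p = 3.6e-11 and 1.1e-07). Its ligand gene Pdgfc fell by 2.99 ± 0.33 (adjusted p = 2.6e-08) and Pdgfa was not called (0.73). The apelin receptor Aplnr rose by 3.45 ± 0.28 (adjusted p = 3.4e-11). For the VEGF receptor Kdr the 2 probes disagreed, with log2 FCs of 0.20 for the brighter probe and 5.46 for the other, and its call rests on the second.

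Genes of mesoderm and of endoderm were called higher in the same sorted population, and bulk RNA cannot show whether single cells held both. Of 20 genes of nascent and cardiac mesoderm 11 were higher and 0 lower, with a median log2 FC of 2.09. Of 20 definitive endoderm genes 10 were higher and 0 lower, with a median of 1.56. The study's own list of definitive endoderm markers gave 7 of 34 higher and 1 lower, with a median of 0.021, and 1 of the 34 was higher than in d3G-. The first 2 lists hold genes that also stand in the streak or migration lists. Against d3G- their counts of higher genes were 6 and 3. Over all genes 3.02% were higher than in d2 and 0.73% higher than in d3G-. Among the mesodermal genes, Hand1 rose from 6.10, 5.37 and 5.68 to 9.93, 9.58 and 9.97 (4.11 ± 0.83, adjusted p = 4.1e-04). Tbx3 rose by 3.53 ± 0.71, Foxf1 by 3.44 ± 0.76, Foxc1 by 2.67 ± 0.44 and the second heart field gene Isl1 by 2.15 ± 0.33 (adjusted p at most 0.0011). Tbx20 was below background on all d2 arrays and at least 5.03-fold higher in d3G+. The cardiac factors Nkx2-5 and Tbx5 were not called, at 0.43 and 0.38, and Gata5 stood at -0.03.

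On the endodermal side Sox17, the defining factor of definitive endoderm, was at the edge of detection. It read 4.51, 5.06 and 4.99 on d2 and 5.40, 7.93 and 6.39 in d3G+, against 5.69, 5.51 and 5.24 in d3G-. The d3G+ arrays spread over more than 2 log2 units, the lowest of them lay among the d3G- arrays, and the log2 FC over d2 was 1.72 ± 0.43 (adjusted p = 0.0039). The call of Sox17 was lost without d3G+ replicate 2 (1.04, adjusted p = 0.105), d2 replicate 1 (1.55, adjusted p = 0.0285) or d2 replicate 3 (1.79, adjusted p = 0.0105). Foxa1 rose by 2.18 ± 0.44 (adjusted p = 4.9e-04), and the keratin genes Krt8 and Krt18 by 3.23 ± 0.44 and 2.49 ± 0.36 (adjusted p = 1.0e-06 and 3.8e-06). The keratins also rose in d3G-, by 2.68 and 2.24. Hhex, the second reporter gene, read 7.10, 7.11 and 7.14 on d2 and 7.03, 8.48 and 7.93 in d3G+ and was not called (0.70). Hnf4a was below background on all 6 arrays.

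Genes of naive pluripotency, the state of the inner cell mass, fell broadly. Of 20 members 13 were lower and 1 higher in d3G+ than in d2, with a median log2 FC of -2.45. In d3G- 1 of the 20 was lower than on d2, and d3G+ was below d3G- for 9. The shares of lower genes over all genes were 2.81%, 0.293% and 1.12% in these 3 comparisons. Of 15 general pluripotency genes 6 were lower and 0 higher, and of 15 genes of the formative and primed epiblast 4 were lower and 1, Fgf5, was higher.

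**Figure D3:**
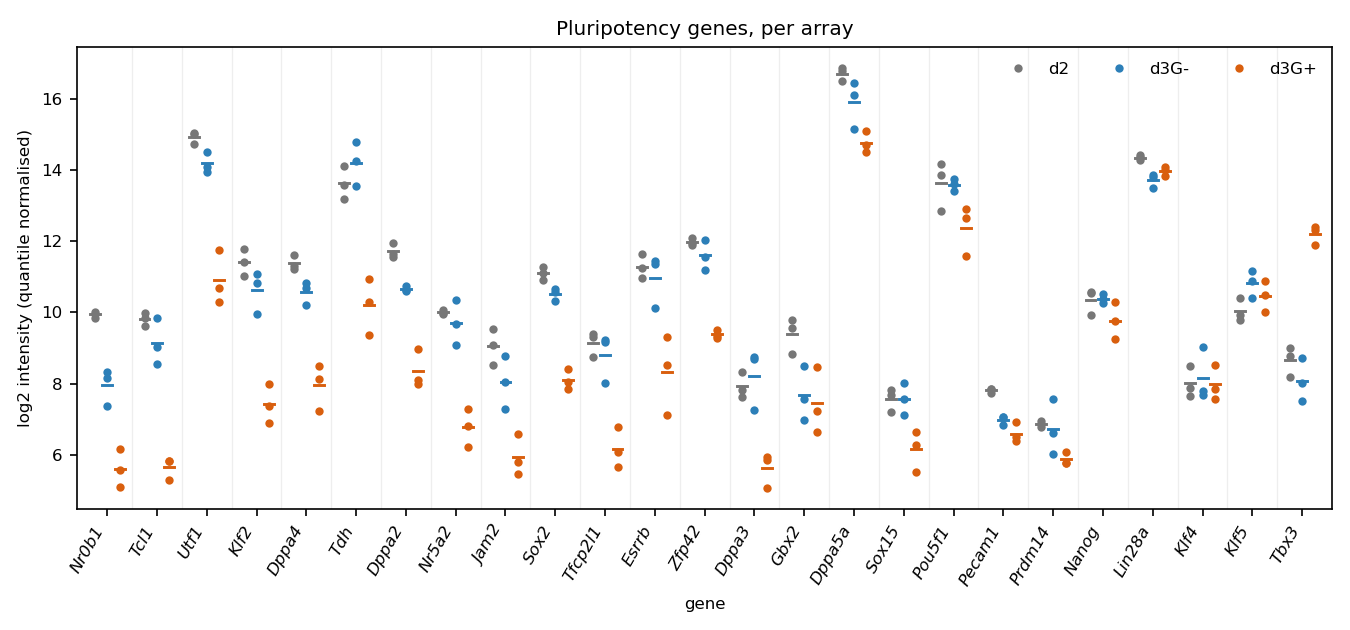
Log2 intensity (vertical axis, quantile normalised) of genes of naive and general pluripotency on each d2 (grey), d3G- (blue) and d3G+ (orange) array, with a bar at the mean of each group. For Tcl1, Klf2, Tdh, Sox2 and Utf1 the d3G+ arrays lie below all d3G- and d2 arrays, while Nanog, Klf4 and Klf5 overlap between the groups and Tbx3 is higher in d3G+.

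Tcl1, a coactivator of Akt, fell from 9.61, 9.83 and 9.98 to 5.83, 5.84 and 5.30 and read 9.03, 9.84 and 8.56 in d3G-. The d3G- arrays overlapped d2 and the d3G+ arrays did not, with changes of -4.15 ± 0.34 from d2 and -3.49 ± 0.34 from d3G- (adjusted p = 4.9e-11 and 1.9e-08). Klf2, a Krüppel-like factor of the naive network, Tdh, the threonine dehydrogenase of ESCs, and the nuclear receptor gene Nr5a2 fell, with log2 FCs of -3.98 ± 0.42, -3.42 ± 0.40 and -3.22 ± 0.33 (adjusted p at most 5.4e-08). Esrrb, Tfcp2l1 and Zfp42 (Rex1) fell as well, at -2.96 ± 0.56, -2.97 ± 0.35 and -2.59 ± 0.34 (adjusted p at most 1.8e-04). All 6 were called against d3G- too. Nr0b1 fell by 4.33 ± 0.65 (adjusted p = 6.1e-06), and its difference from d3G- of -2.34 ± 0.65 was not called (adjusted p = 0.030).

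The core factors of pluripotency did not move alike. Sox2 fell from 10.91, 11.11 and 11.27 to 7.84, 8.05 and 8.41 (-2.99 ± 0.25, adjusted p = 5.2e-11), against 10.32, 10.66 and 10.57 in d3G-. Pou5f1, which encodes OCT4, read 12.83, 13.85 and 14.17 on d2 and 11.60, 12.65 and 12.89 in d3G+, and Nanog 10.55, 9.92 and 10.57 on d2 and 9.26, 9.75 and 10.29 in d3G+. The d2 and d3G+ arrays overlapped for both, with log2 FCs of -1.24 ± 0.63 and -0.58 ± 0.36 (adjusted p = 0.27 and 0.44). Between same-numbered arrays, both genes were lower in d3G+ than on d2 each time. All d3G+ arrays of Pou5f1 lay below its d3G- values of 13.4, 13.7 and 13.6, while those of Nanog overlapped d3G-. Utf1, a chromatin factor of pluripotent cells, fell by 4.01 ± 0.44, and Dppa2 and Dppa4 had log2 FCs of -3.36 ± 0.23 and -3.44 ± 0.27 (adjusted p at most 1.7e-08). Klf4 stood at -0.03 and Klf5 at 0.41, neither called, from d2 means of 8.01 and 10.04 that compare with 12.04 and 12.55 in ESCs. Tbx3 was the higher member of the naive list and is counted among the mesodermal genes as well.

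Dnmt3l, the cofactor of de novo DNA methylation, fell from 13.85, 14.12 and 13.68 to 10.20, 9.59 and 9.05 and read 12.92, 13.49 and 12.45 in d3G-. The groups were separate and the log2 FC from d2 was -4.27 ± 0.37 (adjusted p = 1.7e-10). Its partners Dnmt3b and Dnmt3a, at -1.12 and -0.24, were not called. Of the epiblast genes, Pou3f1 (Oct6), Enpp3 and the Wnt antagonist gene Sfrp2 fell, with log2 FCs of -2.21 ± 0.43, -3.72 ± 0.64 and -2.17 ± 0.22 (adjusted p at most 2.4e-04), while Otx2 and Sox3 stood at 0.87 and -0.82 and were not called.

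Outside these lists, the largest increases included genes of other functions. Cyp26a1, the enzyme that degrades retinoic acid, rose from 6.74, 5.96 and 6.90 to 12.84, 13.81 and 13.36, a log2 FC of 6.80 ± 0.29 (adjusted p = 1.7e-17). Its d3G- arrays read 9.90, 9.75 and 9.31, apart from both groups. The LIM-only gene Lmo1, the protocadherin gene Pcdh7, the lipase gene Mgll and Klhl6 rose by 5.36 ± 0.40, 5.32 ± 0.28, 5.24 ± 0.43 and 5.14 ± 0.38 (adjusted p at most 4.6e-11), with the lowest of the 4 Mgll probes at 0.03. Prdm6 was below background on all d2 arrays and at least 31.8-fold higher in d3G+ (adjusted p = 2.6e-09). A further 2 of the 15 largest increases had no symbol in the annotation used and are not named.

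Mymx, known for a membrane protein of myoblast fusion, fell most. It read 11.82, 11.53 and 11.55 on d2 and 6.34, 5.19 and 5.01 in d3G+, with d3G- arrays at 9.19, 9.19 and 8.22. The 3 populations did not overlap, and the log2 FC from d2 was -6.12 ± 0.36 (adjusted p = 4.1e-14). The exchange factor gene Mcf2 and the calpain gene Capn3 fell, with log2 FCs of -5.36 ± 0.40 and -5.17 ± 0.30 (adjusted p at most 5.7e-12), and both were also lower in d3G- than on d2 (-2.31 and -2.54). Cpsf4l, Bmerb1, Slc5a11, Insm1 and Tdrd12, the last a gene of the piRNA pathway, fell, at -4.66, -4.29, -4.19, -4.14 and -4.11. A second probe of Capn3 and of Slc5a11 gave 0.15 and -0.67. The ribosomal protein paralogues Rpl10l and Rpl39l fell, at -4.66 and -4.56, and since close copies of them exist elsewhere in the genome, their probes may read more than 1 gene. The metallothionein gene Mt2 fell by 4.15 ± 0.74 (adjusted p = 7.4e-05) with a wide spread in d3G+ of 13.15, 12.45 and 11.18.

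**Figure D4:**
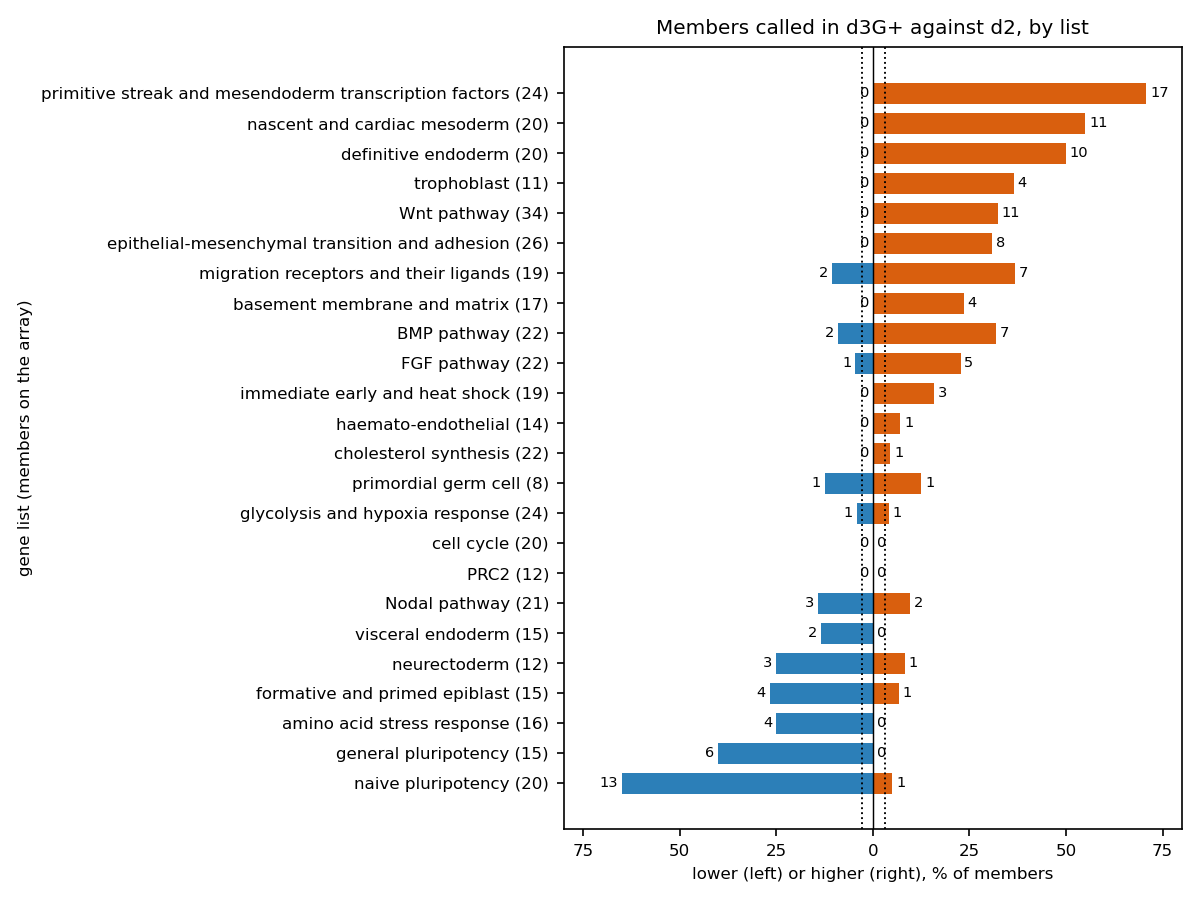
Share of the members of each list, the study's marker lists left out, called higher in d3G+ than d2 (orange, right) or lower (blue, left). The horizontal axis gives percent of the members on the array, whose number is in parentheses, with counts at the bars. Gsc is counted among the streak factors. The lists were chosen with earlier results of these data known, so the shares are a description. Dotted lines mark the shares over all genes, 3.02% higher and 2.81% lower, and the longest bars are the streak factors on the right and naive pluripotency on the left.

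Markers of other cell types that the gate could hold are set beside the shares over all genes, 3.02% higher and 2.81% lower. In lists this short, few calls do not show that a cell type was absent. For visceral endoderm, 0 of 15 genes were higher and 2, Rhox5 and Lrp2, were lower, and the defining genes Ttr, Afp and Apoa1 were below background on all 6 arrays. The list averaged between 6.74 and 6.96 on the d2 arrays and between 5.99 and 6.45 on the d3G+ arrays. For neurectoderm 1 of 12 was higher (Lhx5) and 3 were lower (Pax6, Tubb3 and Hes5), and Pax6 was below background on all d3G+ arrays, at least 3.93-fold lower. Haemato-endothelial genes had 1 of 14 higher (Runx1), and Erg, Tie1 and Hba-x were below background on all 6 arrays. Of 8 germ cell genes 1 was higher (Sox17) and 1 lower (Dppa3). Single arrays decided several of these calls. Runx1 was not called without d3G+ replicate 1 (1.82, adjusted p = 0.0134), Lhx5 fell short of the fold threshold without the same array (1.46), and Tubb3 just missed without d3G+ replicate 3 (-2.35, adjusted p = 0.0101). Dppa3 was not called without d2 replicate 1 or 2 or d3G+ replicate 2 or 3 (-2.35, -2.10, -2.41 and -2.03). In the trophoblast list 4 of 11 were higher (36.4%, median log2 FC of the list 1.99), Eomes, Gata3, Hand1 and Tead4. Its average was 7.72 to 8.27 on d2 and 9.34 to 9.69 in d3G+, Elf5 was below background on all d2 arrays and above it on 2 d3G+ arrays, and Cdx2 was not called. Eomes and Hand1 are streak and mesoderm genes too, and the part of trophoblast cells in these values was not tested.

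Of 19 immediate early and heat shock genes on the array, 3 were higher in the sorted cells, Fos (3.62 ± 0.67), Egr1 (3.25 ± 0.48) and Egr2 (2.17 ± 0.40), and 0 were lower. Egr1 was higher in d3G- as well, by 2.85, and 0 of the 19 differed between d3G+ and d3G-. In that contrast 0.73% of all genes were higher and 1.12% lower. The part of the immediate early genes in the other changes was not tested. Cell cycle genes (20) and genes of the Polycomb repressive complex 2 (12) had 0 called in either direction, with median log2 FCs of -0.008 and -0.187. Over all genes 3.02% were higher and 2.81% lower than in d2. Few or no calls in lists this short therefore do not set a list apart. Of 22 cholesterol genes 1 was higher (Hsd17b7), and of 24 genes of glycolysis and the hypoxia response 1 was higher (Ndrg1) and 1 lower (Pdk1). Pdk1 was not called without d2 replicate 3 (-1.84, adjusted p = 0.0107) or d3G+ replicate 2 (-1.71, adjusted p = 0.0181). The amino acid stress list had 4 of 16 lower and 0 higher, Chac1, Slc7a3, Trib3 and Psph, at -3.75, -3.39, -2.81 and -1.74. Of these only Slc7a3 was also below d3G- (-2.72 ± 0.61, adjusted p = 0.0046).

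In the marker lists of the study, with Gsc left out, 7 of 10 mesendoderm and 12 of 21 mesoderm genes were higher and 0 were lower. Of 11 endoderm genes 2 were higher and 1 lower, with a median log2 FC of 0.161. Of 23 pluripotency genes 13 were lower and 3 higher. The study's methods describe the lists as annotated by hand, and whether these samples informed the choice is not given in the sources used here, so they are not taken as independent evidence.

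Few genes were called in the next day of the same gate, and changes that missed the thresholds are not in these counts. T, which was not called, read 13.62, 13.10 and 12.98 in d3G+ and 10.97, 12.46 and 11.37 a day later, without overlap. Mesp1 overlapped between the 2 days. Between d3G+ and the Gsc-positive cells of d4 (d4G+, 3 arrays) 5 genes were higher (0.0225%) and 3 lower (0.0135%). The 5 were Sfrp5, Wt1, Col8a2, Scn4b and Adora1 and the 3 were Arg1, Dnd1 and 1 gene without a symbol, all named after their values were seen. Sfrp5, a secreted Wnt antagonist of later endoderm, had been flat between d2 and d3G+ (-0.25) and rose by 3.09 ± 0.41 to d4G+ (adjusted p = 2.4e-04). Wt1 rose by 2.92 ± 0.38 over the same day (adjusted p = 2.4e-04).

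In later populations the genes of the d3G+ state differed among themselves. From d3G+ to the Gsc-high cells of d5 and the Hhex-positive cells of d6, mean log2 intensity went from 13.15 to 10.32 to 4.83 for Mesp1 and from 13.24 to 9.30 to 6.45 for T. The corresponding means were 13.96, 13.89 and 12.73 for Eomes and 11.90, 12.05 and 12.84 for Gata6, so that both remained high. Cer1 and Sox17 averaged 8.60 and 6.58 in d3G+ and 15.92 and 12.60 in the Hhex-positive cells. Gdf3 and Tcl1 averaged 8.61 and 5.66 in d3G+ and 7.54 and 4.16 in the Hhex-positive cells. These later populations are a different gate from d3G+, and no test is given for them.

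**Figure D5:**
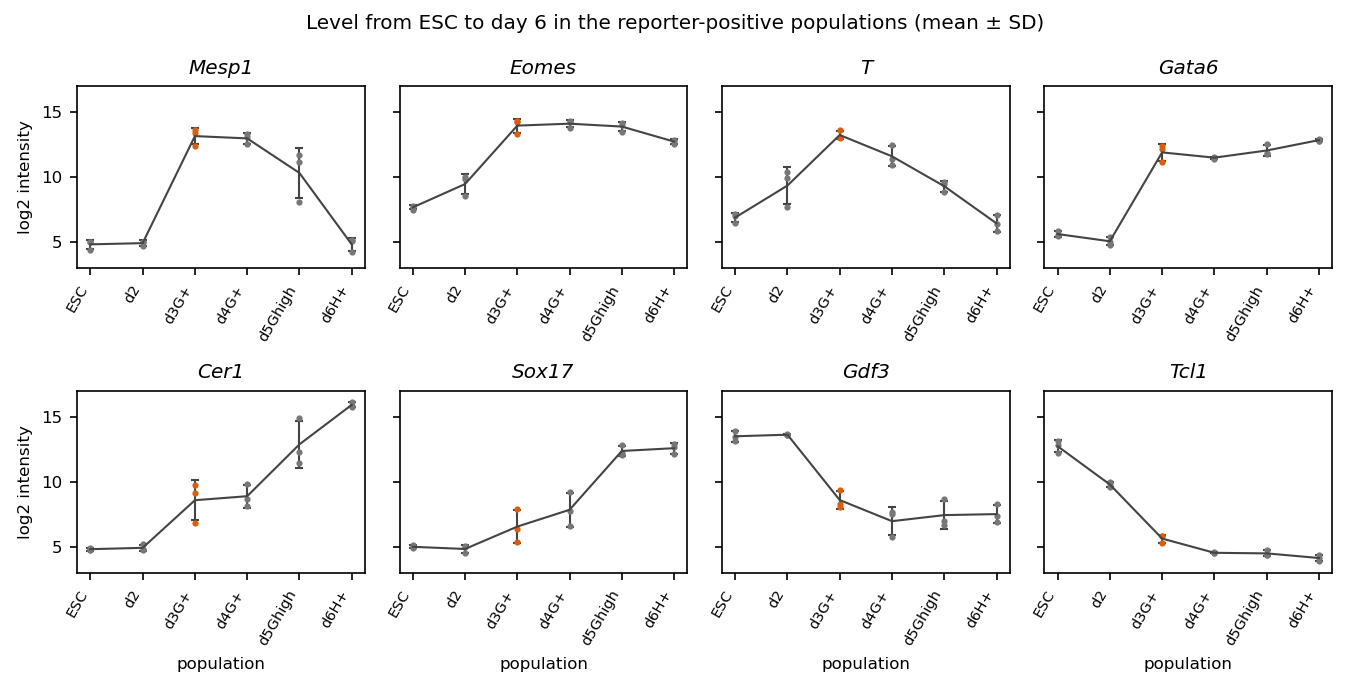
Log2 intensity (vertical axis) of 8 genes in ESC, d2, d3G+, d4G+, d5Ghigh and d6H+ cells (horizontal axis), with each of the 3 arrays as a point, d3G+ in orange, and the line and bars at mean ± SD. T is highest in d3G+, Mesp1 is similar in d3G+ and d4G+ and low on d6, Cer1 and Sox17 are highest on d6, and Gdf3 and Tcl1 are low from d3G+ on.

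The arrays allow the change to be read within slides. The d2 replicate 1 and d3G+ replicate 2 arrays shared a slide, as did d2 replicate 2 and d3G+ replicate 1, while both replicate 3 arrays were on other slides. Mesp1 differed by 8.37 and 7.73 log2 units within these slides and by 8.56 between the replicate 3 arrays. For Gata6 the 3 differences were 7.38, 6.33 and 6.76, for Snai1 4.86, 4.80 and 5.20 and for Gdf3 -5.47, -4.24 and -5.34. T was less even, at 2.68, 5.88 and 3.09, and Sox17 ranged from 0.34 to 3.42. Of the 143 called genes among the named ones 0 changed sign within either slide. These genes were called on the same arrays, so this is no separate check. Those of largest change were also chosen to move alike in all 9 pairs of arrays. However, 51 differed from the fitted log2 FC by more than 1 SD between replicates within the first slide and 88 within the second. With slide as a fixed block 706 genes were higher and 633 lower. The number of arrays, 3 in each group, limits the precision of every value above.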

How the data were processed

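RNA of 14 groups, 3 arrays each, was hybridised to Agilent 1-colour arrays (42 in all). The authors deposited scanner files with foreground and background intensity per spot and a table of log2 intensity, made per the study's methods with limma by normexp background correction (offset 10) and quantile normalisation across all samples. The deposited log2 table was used here, with spots of a probe averaged (59305 spots that are not controls, 55681 probes), and the scanner intensity files, as deposited, gave background marks and alternatives. Recomputing the table from the scanner files gave correlations with it of 0.999979 or more on each array.

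Groups and replicate numbers came from the labels. A linear model with 1 mean per group over all 42 arrays was fitted with limma 3.58.1 in R 4.3.3, moderated with eBayes, and p values were adjusted by Benjamini-Hochberg over all probes. A gene is shown by its brightest probe. Symbols came from RefSeq (GRCm38.p6) for 21850 of 22201 accessions, which gave 20957 symbols on the array, used in the list counts. A lower bound sets the mean of the bright group against the dimmest probe well above background on each dim array, or the dim probe itself where brighter. Named genes are the 15 rising and the 15 falling genes of largest change that were above background in the higher group and moved alike in all 9 pairs of arrays, plus Gsc and list members. The members and lists were chosen with earlier results of these data known. The lists cover the primitive streak, Nodal, Wnt, FGF, BMP, EMT, migration, mesoderm, definitive endoderm, pluripotency, epiblast, other cell types, stress, metabolism, cell cycle, PRC2 and matrix, and Apela and Hspa1b were not on the array. The values of 2 members of the streak list are not reported here, though its counts include them. Deviations of same-numbered d2 and d3G+ arrays correlated at 0.203, 0.158 and 0.538, and a replicate block was run as an alternative. Differently numbered pairs ranged from -0.375 to 0.239. The highest of these was d2 replicate 1 with d3G+ replicate 2, which shared a slide, so the numbers alone do not establish pairing. Other alternatives were background correction, scaling, filters, slide, arrays in the model and leaving out each array. The fitting procedure was tested on simulated data.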

Additional observations from a re-analysis of the deposited data

Results flagged for a closer look

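The sorted populations of d3 differed from each other in 162 genes that were higher and 248 that were lower in d3G+ than in d3G-, which is where their changes from d2 differ by limma. The following genes from the largest changes against d2 differed in this way, each given as log2 difference of d3G+ from d3G-. They were picked by their values on the same d3G+ arrays, which favours a difference in the same direction, so this is no separate check. Higher in d3G+ were Mesp1 (4.94), Fgf10 (4.82), Gata6 (4.63), Pdgfra (4.26), Klhl6 (4.25), Lmo1 (4.19), Prdm6 (4.04), Lhx1 (3.83), Cyp26a1 (3.68), Mixl1 (3.25), Pcdh7 (2.85) and Mgll (2.61). Lower in d3G+ were Gdf3 (-3.66), Cpsf4l (-3.55), Tcl1 (-3.49), Rpl10l (-3.36), Mymx (-3.35), Dnmt3l (-3.34), Bmerb1 (-3.32), Rpl39l (-3.32), Tdrd12 (-3.07), Mcf2 (-3.05), Slc5a11 (-2.92) and Capn3 (-2.62).

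Probes that carry no RefSeq accession were left out of the gene counts. Among these 27615 probes, 79 were higher and 300 lower in d3G+ than in d2 at the same thresholds, and 13 of the 79 were below background on every d2 array and above it on every d3G+ array.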

How the results depend on the processing

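The counts of 671 higher and 623 lower genes stayed within 1.5 times their value under the alternatives run, with 1 exception. With a normexp offset of 50 the lower count was 397 (489 higher). The replicate block gave 699 and 631, ended no call of a named gene and added 9, namely Msx2, Ackr3, Myl7, Plac1, Lama1 and Nid1 (higher) and Crb3, Calcr and Evpl (lower). Leaving out each array in turn gave 563 to 752 higher and 559 to 664 lower genes, and the share of higher genes among the called ranged from 47.3% without d3G+ replicate 1 to 56.6% without d3G+ replicate 3. An alternative chosen after seeing the data kept only the d2 and d3G+ replicates scanned together (replicates 1 and 2) and gave 718 and 555. No named gene reversed, though every setting reuses the arrays on which the genes were called. The calls least stable among the 143 called named genes were those of Cdx1, Gbx2 and Id4 (lost in 9 settings each), Nkd1 and Sox17 (8), Msx1 (7), Cer1 (6), Dppa3 and Grem1 (5) and Id2 and Pcsk6 (4). The count of higher streak members, Gsc included, ranged from 15 to 17 and that of lower naive members from 10 to 14. The BMP list had 0 to 2 lower members, at 0 with replicates 1 and 2 alone and without d2 replicate 3. The matrix list had 7 higher members without d3G+ replicate 3 in place of 4, and scaling to the 75th percentile gave 5 lower visceral endoderm genes in place of 2. The causes were not tested. Probes near background limit the smallest changes.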
